A study of Mus musculus with 21 samples.

Results

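The 10 genes described here are the cholinesterases Bche and Ache, the acetylcholine synthesis and choline uptake genes Chat and Slc5a7, the muscarinic receptors Chrm1, Chrm2, Chrm3 and Chrm4, and the nicotinic subunits Chrna4 and Chrnb2. They were chosen by name, among the 16318 genes in the count table, because Bche was already known from these data as one of the clearer decreases under treatment. All 10 were in the table, and all 10 passed the filter on low counts that left 16303 genes for testing. Their difference between treatments is therefore given as a description with no p-value, while sex, variation between brains and levels between genes were not used to choose them.

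The study asked what chronic block of the potassium channel Kv1.3 does in the brain of a mouse that ages early. RNA-sequencing libraries were made from the whole brains of 21 SAMP8 mice, an inbred senescence-accelerated line with early memory decline. Of these, 12 mice (6 female, 6 male) received PBS and 9 mice (3 female, 6 male) received HsTX1[R14A], a peptide blocker of Kv1.3. The sample titles spell the peptide HxTX1[R14A]. Both groups were dosed under the skin every other day for 8 weeks from 4 months of age, the peptide at 1 mg/kg, and brains were taken at 6 months after perfusion with PBS. Every mouse was SAMP8, so neither a resistant strain nor an untreated group enters any comparison, and each library is 1 mouse.

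Acetylcholine is made in cholinergic neurons from choline, which the transporter encoded by Slc5a7 brings back into the nerve ending and the enzyme encoded by Chat acetylates. Once released, it acts on G protein-coupled muscarinic receptors and on nicotinic receptors, which are ligand-gated cation channels, and it is cleaved mainly by acetylcholinesterase and to a lesser extent by butyrylcholinesterase. Loss of basal forebrain cholinergic neurons is a hallmark of Alzheimer's disease, and cholinesterase inhibitors are used to treat its symptoms.

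Promoter sequence was read for the genes on which the results turn, from RefSeq on GRCm38.p6 as the 250 bases before the annotated start. A window was found for 9 of the 10 genes, all except Chrm1. The windows of Bche, of Slc5a7 (which varied together with Chat across brains) and of Chrnb2 (which varied together with Chrna4) are shown 5′ to 3′ on the gene's strand, with any GC box (GGGCGG or its reverse complement CCGCCC) in capitals.
Bche, chr3:73708416-73708665, minus strand: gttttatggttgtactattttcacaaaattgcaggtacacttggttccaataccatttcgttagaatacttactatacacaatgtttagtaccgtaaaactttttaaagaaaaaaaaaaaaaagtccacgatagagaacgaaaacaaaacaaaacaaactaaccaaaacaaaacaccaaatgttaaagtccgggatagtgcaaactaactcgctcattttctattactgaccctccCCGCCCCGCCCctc
Slc5a7, chr17:54299035-54299284, minus strand: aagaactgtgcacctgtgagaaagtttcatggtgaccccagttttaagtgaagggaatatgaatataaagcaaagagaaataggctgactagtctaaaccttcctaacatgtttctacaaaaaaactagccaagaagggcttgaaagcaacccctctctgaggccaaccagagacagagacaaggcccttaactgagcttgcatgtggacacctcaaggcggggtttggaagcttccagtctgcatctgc
Chrnb2, chr3:89764633-89764882, minus strand: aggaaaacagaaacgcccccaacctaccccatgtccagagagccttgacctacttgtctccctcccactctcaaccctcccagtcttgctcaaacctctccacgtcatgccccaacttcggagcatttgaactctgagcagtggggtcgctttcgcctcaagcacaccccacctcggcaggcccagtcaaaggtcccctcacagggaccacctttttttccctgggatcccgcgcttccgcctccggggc
The Bche window was AT-rich, with 35.6% G or C against a median of 52.4% over 32851 RefSeq windows of the same length, and its 2 GC boxes, which overlap by a base, lay at its 3′ end. The windows of Ache and Chrna4 were the richest in G and C, at 73.6% and 74.4%, with 4 and 3 GC boxes. Chrm4 had 3 GC boxes and Chrm2 had 1, and Chat, Slc5a7, Chrm3 and Chrnb2 had none of these letters. A GC box was present in 32.7% of all windows. Slc5a7 held the only TATAAA match among the 9 windows, a word found on either strand in 12.4% of all windows.

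Libraries held 14917174 to 47613792 estimated counts, with similar medians in PBS (25193122.5) and HsTX1[R14A] mice (24465565). All 5 markers of neurons in general (Snap25, Syt1, Rbfox3, Stmn2 and Map2) were found in every group, with summed levels of 4590 to 6912 CPM (counts divided by library size, the size itself scaled by the trimmed mean of M values, TMM) in PBS and 4965 to 7492 CPM in HsTX1[R14A] mice. Library headers came in 2 forms, 1 for 15 mice (10 PBS and 5 HsTX1[R14A]) and another for 6 mice (2 PBS and 4 HsTX1[R14A]), and the labels do not say what the forms mean. Libraries also differed in how level related to transcript length. This was summarised as a length slope, the slope over genes of a library's log2 CPM, relative to the mean of all libraries, on log2 transcript length. It ran from -0.384 to 0.147 in PBS mice (median -0.0229) and from -0.142 to 0.234 in HsTX1[R14A] mice (median 0.150), so long transcripts counted for more in most treated libraries. The libraries of PBS female mouse 103 and PBS male mouse 90 had the lowest slopes. In whole-brain RNA, fewer cells of a type and less RNA per cell cannot be told apart.

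Expressed per kilobase of the longest annotated transcript, Chrm1 was the most abundant of the 10 genes and Bche the least. The median over the 21 brains was 15.6 CPM per kilobase for Chrm1, which encodes the main excitatory muscarinic receptor of the forebrain. Ache followed with 12.4 CPM per kilobase. Chrm4, an inhibitory muscarinic receptor that is abundant in striatum, had a median of 10.6 CPM per kilobase, over a gene model of 1440 bases that holds a coding sequence alone. Each of the 3 had a higher median than Chat and Slc5a7, the genes restricted to cholinergic neurons.

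The medians of Chrm3, Chrna4 and Chrnb2 lay close together, at 7.21, 6.12 and 6.08 CPM per kilobase. Chrna4 and Chrnb2 encode the subunits of the main high-affinity nicotinic receptor of the brain, and neither gene was regularly above the other, since Chrna4 exceeded Chrnb2 in 9 of 21 mice. Chrm2, the autoreceptor on many cholinergic terminals, had a median of 4.39 CPM per kilobase, Slc5a7 3.2, Chat 2.54 and Bche 1.12. Apart from Chrna4 and Chrnb2, each gene exceeded the next in the order in 15 to 20 of the 21 mice. With the summed length of all exons in place of the longest transcript, Ache (9.85) moved below Chrm4 (10.6), and Chrna4 (5.56) moved above Chrm3 (5.0).

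**Figure D1:**
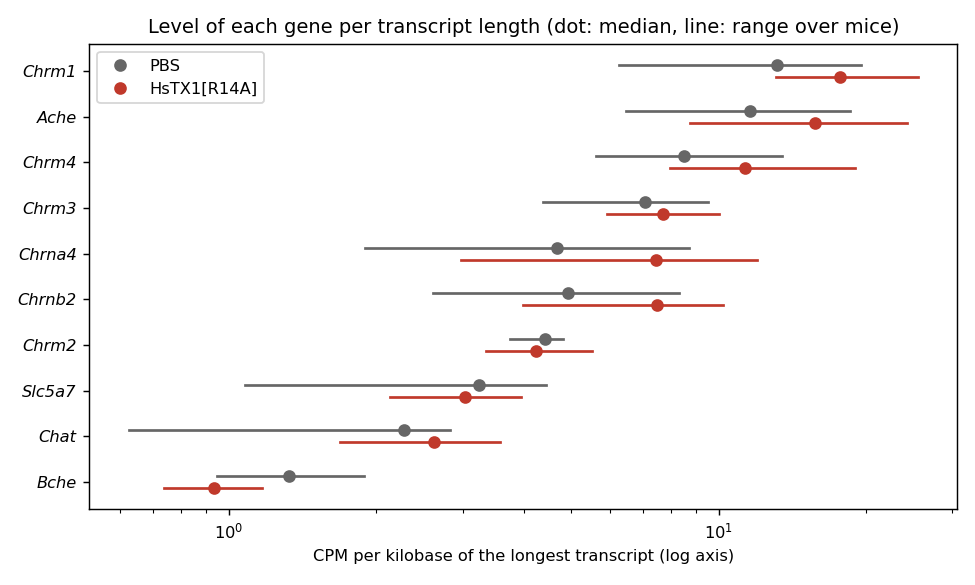
Level of each gene in CPM per kilobase of its longest annotated transcript (log axis), with a dot for the median and a line for the range over the 12 PBS mice (grey) and the 9 HsTX1[R14A] mice (red). Chrm1 has the highest and Bche the lowest median over all mice, and the Bche ranges of the 2 treatments overlap only in part.

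Under treatment, Bche was lower while Ache, Chrm1, Chrm4, Chrna4 and Chrnb2 were higher in HsTX1[R14A] than in PBS mice, and Chat, Slc5a7, Chrm2 and Chrm3 were not called. In the fit of all genes (edgeR quasi-likelihood, false discovery rate at most 0.05), 6 of the 10 genes were called, 5 higher and 1 lower. The same fit called 31.6% of all genes, 15.5% higher and 16.1% lower, and the genes were chosen with this contrast known, so the count carries no weight of its own. The median log2 fold change was 0.40 over the 10 genes and -0.01 over all genes tested.

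Some marker genes of cell types were called in the same contrast. Of 65 markers tested, 3 were called higher and 7 lower (edgeR, adjusted p at most 0.05). This is a smaller share than the 31.6% called over all genes. The oligodendrocyte markers Mobp, Mog and Mbp were lower, with log2 fold changes of -0.67, -0.57 and -0.40, while Cldn11 and Mag of the same list were not called (-0.06 and 0.08). The summed level of these 5 markers ran from 3002 to 5139 CPM in PBS and from 2334 to 3312 CPM in HsTX1[R14A] mice. The astrocyte markers Gfap (-0.59) and Aqp4 (-0.30), the microglial marker P2ry12 (-0.65) and the ependymal marker Ccdc153 (-1.15) were lower as well. The neuronal marker Syt1 (0.31), the endothelial marker Flt1 (0.64) and the oligodendrocyte precursor marker Cspg4 (0.66) were higher. The other members of these lists were not called, and some had the opposite sign. These were Stmn2 (-0.19) and Snap25 (-0.12) of the neuronal, Csf1r (0.28) of the microglial and Aldh1l1 (0.15) of the astrocyte markers. The ependymal marker Foxj1 (0.003) and the endothelial marker Ly6c1 (-0.003) were near 0. Single called markers therefore do not stand for their whole list. The part of these cell types in the values of the 10 genes was not tested.

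Among the cholinesterases, the 2 genes differed in opposite directions. Bche (chr3:73635808-73708415, minus strand, GRCm38) ran from 5.86 through a median of 8.23 to 11.7 CPM in PBS mice and from 4.57 through 5.80 to 7.25 CPM in HsTX1[R14A] mice. All 9 treated brains were below the PBS median, 5 were below the lowest PBS brain, and 9 of the 12 PBS brains were above the highest treated one. The log2 fold change, adjusted for sex, was -0.57 (SE 0.0991), or 0.672-fold. These levels rest on 88 to 321 counts a library. Ache (chr5:137287519-137294466, plus strand), which encodes the main enzyme that ends cholinergic transmission, ran from 23.9 through 42.7 to 68.5 CPM in PBS mice and from 32.3 through 58.1 to 89.5 CPM in HsTX1[R14A] mice. The groups overlapped widely, and 7 of the 9 treated brains were above the PBS median. Its log2 fold change was 0.48 (SE 0.168), or 1.40-fold. An exon of Ache overlaps the long non-coding RNA Gm42456 on the opposite strand.

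The genes for synthesis and choline uptake were not called, and their widest spread was among PBS males. Chat (chr14:32408203-32465989, minus strand) ran from 1.79 through 6.52 to 8.07 CPM in PBS mice and from 4.81 through 7.51 to 10.2 CPM in HsTX1[R14A] mice. Of the PBS brains 3 lay below every treated brain, and 3 treated brains lay above every PBS brain. The log2 fold change of Chat was 0.32 (SE 0.226), or 1.24-fold. Slc5a7 (chr17:54273590-54299034, minus strand) ran from 5.60 through 16.8 to 23 CPM in PBS mice and from 11 through 15.7 to 20.5 CPM in HsTX1[R14A] mice, with every treated brain inside the PBS range. PBS male mice 101 and 82 were the lowest for both genes, with 1.79 and 2.51 CPM of Chat and 5.65 and 5.60 CPM of Slc5a7. The log2 fold change of Slc5a7 was 0.04 (SE 0.225).

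Of the muscarinic receptors, Chrm1 and Chrm4 were higher in treated brains. Chrm1 (chr19:8663789-8683587, plus strand) ran from 39.3 through 82.3 to 122 CPM in PBS mice and from 82.3 through 111 to 160 CPM in HsTX1[R14A] mice. Of the 9 treated brains 8 were above the PBS median, and 6 PBS brains were below the lowest treated one. The log2 fold change was 0.61 (SE 0.165), or 1.52-fold. Chrm4 (chr2:91927249-91928688, plus strand) ran from 8.09 through 12.2 to 19.3 CPM in PBS mice and from 11.5 through 16.3 to 27.4 CPM in HsTX1[R14A] mice. Treated brains overlapped the PBS range, with 7 of 9 above the PBS median. Its log2 fold change was 0.52 (SE 0.177), or 1.43-fold.

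Chrm2 and Chrm3 differed little. Chrm2 (chr6:36388084-36528414, plus strand) was the steadiest of the 10 genes in PBS mice, at 21.3 through 25.1 to 27.3 CPM, and ran from 19 through 24.1 to 31.3 CPM in HsTX1[R14A] mice. The treated range enclosed the PBS range on both sides, and the log2 fold change was 0.04 (SE 0.0826). Chrm3 (chr13:9875486-10360847, minus strand), which like Chrm1 encodes a receptor that signals through Gq, ran from 18.9 through 30.7 to 41.2 CPM in PBS mice and from 25.7 through 33.4 to 43.4 CPM in HsTX1[R14A] mice. Its groups overlapped over most of their range, with a log2 fold change of 0.15 (SE 0.130). Exons of Chrm2 overlap the long non-coding RNA 9330158H04Rik on the opposite strand.

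The 2 nicotinic subunits were higher in treated brains by nearly equal amounts. Chrna4 (chr2:181018380-181043546, minus strand) ran from 8.66 through 21.3 to 39.8 CPM in PBS mice and from 13.6 through 33.9 to 54.6 CPM in HsTX1[R14A] mice. Chrnb2 (chr3:89746195-89764632, minus strand) ran from 16.7 through 31.5 to 53.1 CPM in PBS mice and from 25.5 through 48 to 65.5 CPM in HsTX1[R14A] mice. For each subunit 8 of the 9 treated brains were above the PBS median, and the groups overlapped. The log2 fold change was 0.69 (SE 0.249), or 1.61-fold, for Chrna4 and 0.60 (SE 0.185), or 1.51-fold, for Chrnb2. Exons of Chrnb2 overlap those of Adar, an RNA-editing enzyme gene on the opposite strand. Adar had a median of 111 CPM against 38.9 CPM for Chrnb2, and their residual levels followed each other across mice (r = 0.976, a description). The sources name different library kits, so it is not known that reads of the 2 genes were told apart by strand.

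**Figure D2:**
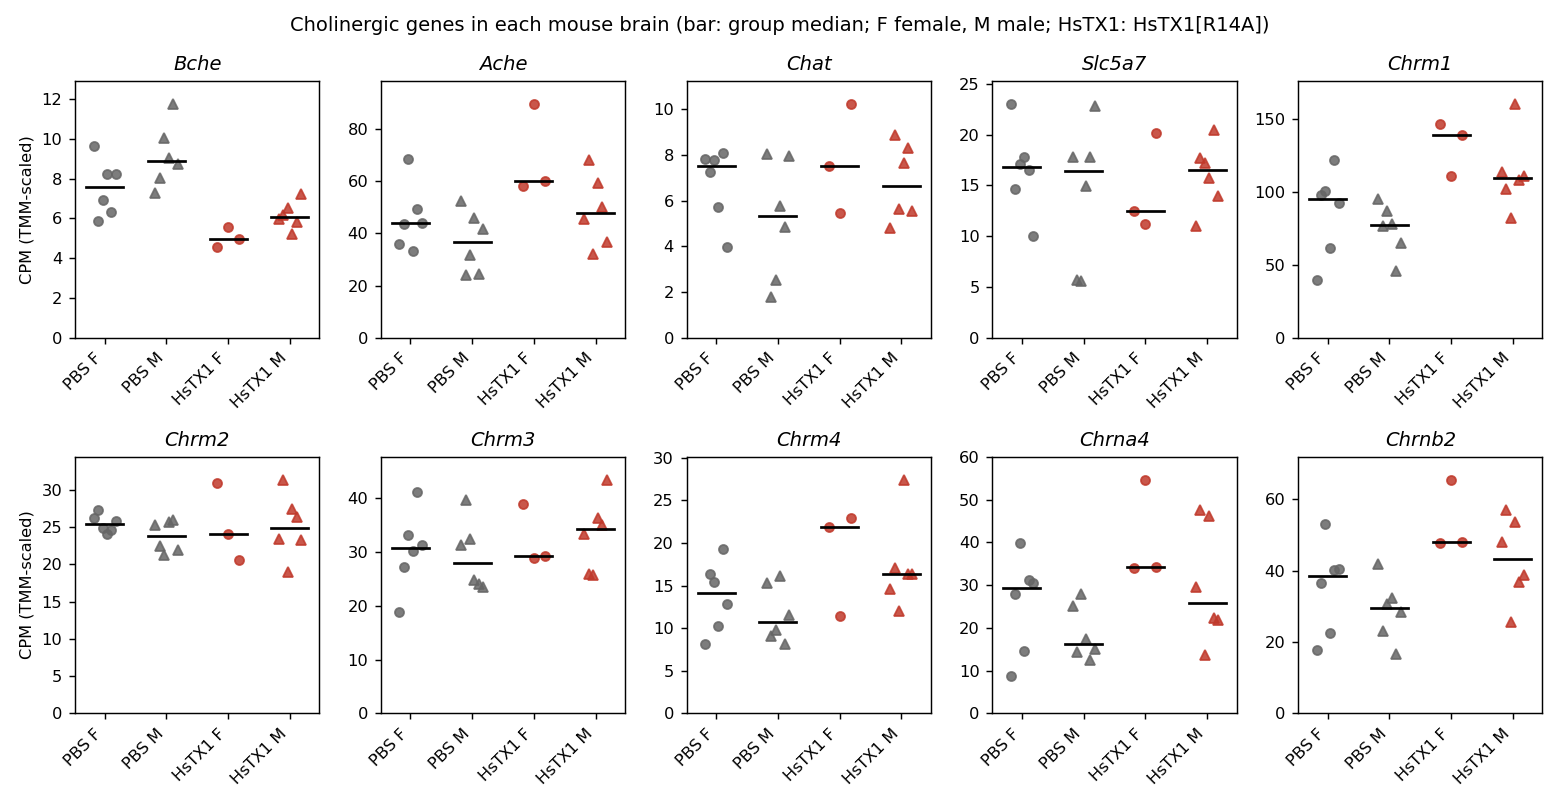
Level of each of the 10 genes in CPM in every mouse, by treatment and sex (circles for females, triangles for males, grey for PBS, red for HsTX1[R14A], black bars for medians of 6, 6, 3 and 6 mice), with each vertical axis starting at 0. The 9 treated brains lie below the PBS median for Bche, and the 2 lowest PBS males for Chat are also the 2 lowest for Slc5a7.

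The treatment difference changed with how the libraries were modelled. With the length slope as a covariate none of the 10 genes was called by edgeR and 1 had an unadjusted p under 0.05, and of all 16303 genes none was called and 1865 had an unadjusted p under 0.05. The log2 fold change was then -0.39 (SE 0.0974) for Bche, 0.08 for Ache, 0.14 for Chrm1, 0.09 for Chrm4, 0.03 for Chrnb2 and -0.09 for Chrna4, whose direction turned. Of these 6 values that of Bche was the farthest from 0. The length slope itself differed between the groups, so the slope and the treatment cannot be fully told apart. With the header form as covariate, Bche and Chrm1 were called, and their log2 fold changes were -0.52 and 0.51. Of all 16303 genes, that fit called 975 higher and 1024 lower, against 2526 and 2618 in the main model.

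Within the 15 mice of the more common header form, the log2 fold change was -0.59 for Bche, 0.62 for Ache, 0.57 for Chrm1, 0.43 for Chrm4, 0.83 for Chrna4 and 0.73 for Chrnb2. Within the 6 mice of the other form it had the same sign for all 6 genes but was smaller, at -0.33 for Bche, 0.03 for Ache, 0.36 for Chrm1, 0.30 for Chrm4, 0.21 for Chrna4 and 0.13 for Chrnb2. None of the 10 genes was called by edgeR in either subset, although 6 had an unadjusted p under 0.05 in the 15 mice and 0 in the 6 mice. Of all genes tested, none was called in either subset. An unadjusted p under 0.05 was found for 5797 of 16305 genes in the 15 mice and 532 of 16170 in the 6 mice. Since the genes were chosen with this contrast known, the calls that follow describe it and support nothing. With 1 mouse left out, the log2 fold change ran from -0.61 to -0.52 for Bche, and 3 of the 10 genes were called without PBS female mouse 73, PBS male mouse 90 or 101, HsTX1[R14A] female mouse 71 or 72, or HsTX1[R14A] male mouse 81 or 88, and 3 also without both mice 103 and 90. In these fits 1259 to 1954 of all genes were called higher and 1030 to 2101 lower, against 2526 and 2618 in the main model. Chrnb2 was not called without mouse 71, Chrm4 not without female mouse 98, and Chrna4 also not without mouse 98, 83, 91 or 74.

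**Figure D3:**
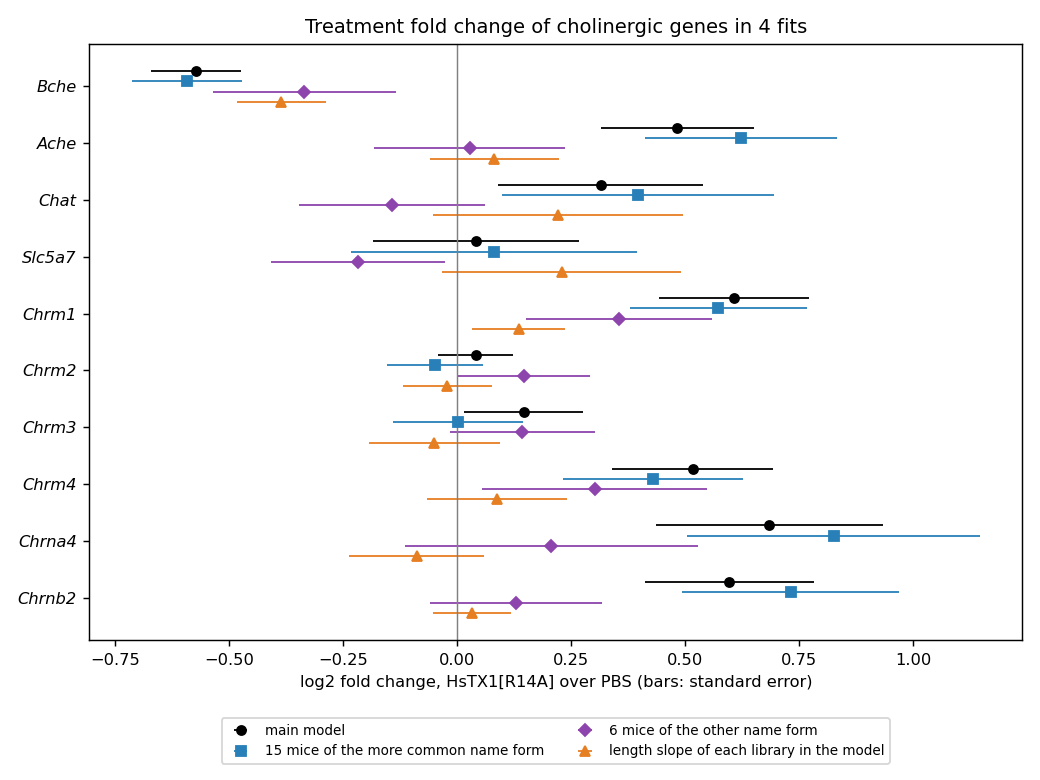
Log2 fold change of each gene, HsTX1[R14A] over PBS, with its standard error, in the main model with sex (black), in the 15 mice (blue) and the 6 mice (purple) of each header form, and in the model that also holds the length slope (orange). Bche stays below 0 in all 4 fits, while Chrna4 and Chrnb2 move to near 0 with the length slope.

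Males and females did not differ in any of the 10 genes at a false discovery rate of 0.05, against 0.0552% of all genes called (0.0307% higher and 0.0245% lower in males), and limma/voom and DESeq2 called none of the 10 either. Bche and Ache were the only 2 of the 10 with an unadjusted p under 0.05 in the edgeR fit. Of all 16303 genes, 1765 had such a p for sex. Bche had a log2 difference of 0.28 (SE 0.0986) of males over females (edgeR, adjusted p = 0.446). Its median was 7.58 CPM in PBS females and 8.88 CPM in PBS males, and 4.96 CPM in HsTX1[R14A] females against 6.06 CPM in HsTX1[R14A] males. The sexes overlapped within PBS mice, where females reached 9.65 CPM and males began at 7.26 CPM. Ache leaned the other way, by -0.39 (SE 0.168; edgeR, adjusted p = 0.446). Over the settings tried, the adjusted p ran from 0.107 to 0.833 for Bche and from 0.114 to 0.888 for Ache. The other 8 genes had log2 differences from -0.45 for Chrna4 to -0.01 for Chrm3.

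The effect of treatment was not shown to differ between the sexes. None of the 10 genes, and none of the 16303, was called for the interaction of treatment and sex by edgeR, limma/voom or DESeq2, while 270, 250 and 302 genes had an unadjusted p under 0.05. The male effect minus the female effect ran from -0.19 for Ache to 0.35 for Slc5a7 on the log2 scale, and for Bche it was 0.01 (SE 0.204). With 3 treated females these standard errors leave room for sizeable differences.

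Most of the wider set of cholinergic genes were not called. Of 46 further genes listed for acetylcholine handling and reception, 37 were in the table and were tested, and 4 of them were called, 3 higher and 1 lower. Over all genes 31.6% were called, and the median log2 fold change was 0.16 for the 37 genes and -0.01 for all genes. No gene was called among the 5 for choline uptake and phosphorylation, the 4 cholinergic neuron factors and trophic receptors, the 2 for vesicular loading and the 2 cholinesterase anchors.

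Of the 7 remaining nicotinic subunits 6 had a positive log2 fold change and 2 were called, both higher. Over all genes tested 48.6% had a positive value and 31.6% were called. Chrna7, the subunit of the homomeric alpha7 receptor, ran from 2.82 through 5.78 to 7.19 CPM in PBS mice and from 5.71 through 6.85 to 9.82 CPM in HsTX1[R14A] mice. It had 7 of 9 treated brains above the PBS median and a log2 fold change of 0.45 (SE 0.145; edgeR, adjusted p = 0.0280), which was 0.39 and not called without mouse 71 (adjusted p = 0.0614), nor without mouse 72 (adjusted p = 0.0565) or mouse 88 (adjusted p = 0.0508). Over the settings tried the adjusted p for Chrna7 ran from 0.0118 to 0.886. Chrna6, a subunit typical of dopamine neurons, had very low levels, from 0.0569 through 0.274 to 0.596 CPM in PBS mice and from 0.178 through 0.347 to 4.38 CPM in HsTX1[R14A] mice. Its log2 fold change of 1.83 (SE 0.536; edgeR, adjusted p = 0.0219) rested on the 2 highest brains. Without mouse 71 it was 0.89 (adjusted p = 0.174), and without mouse 88 it was 1.36 (adjusted p = 0.0597).

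Gnao1, which encodes the G protein Go alpha subunit that inhibitory muscarinic receptors can use, rose by 0.38 (SE 0.131; edgeR, adjusted p = 0.0343). It ran from 302 through 507 to 628 CPM in PBS mice and from 486 through 627 to 958 CPM in HsTX1[R14A] mice. Without mouse 81, the highest, its log2 fold change was 0.29 (adjusted p = 0.0703), and it also lost its call without mouse 72, 73, 74, 88, 90, 91, 98 or 101. With the length slope as covariate the value for Gnao1 was 0.01 (adjusted p = 0.987), and over the settings its adjusted p ran from 0.0169 to 0.987. Lypd6, a GPI-anchored modulator of nicotinic receptors, fell by 0.29 (SE 0.0870; edgeR, adjusted p = 0.0228), from 21.8 through 25.3 to 33.6 CPM in PBS mice to 17.5 through 21.3 to 26 CPM in treated mice. Without mouse 90 the adjusted p for Lypd6 was 0.0549, and with the length slope as covariate its log2 fold change was -0.10 (adjusted p = 0.625). Over the settings its adjusted p ran from 0.00929 to 0.855.

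Neither vesicular gene was called. Slc18a3, the vesicular acetylcholine transporter, whose gene lies inside a Chat intron on the same strand, ran from 0.455 through 2.09 to 4.17 CPM in PBS mice and from 2.17 through 3.74 to 5.34 CPM in HsTX1[R14A] mice. All 9 treated brains were above the PBS median, with a log2 fold change of 0.74 (SE 0.288; edgeR, adjusted p = 0.0535; 0.0281 to 0.964 over the settings, and under 0.05 in 9 of them). Slc10a4, a synaptic vesicle protein of cholinergic neurons, had a log2 fold change of 0.53 (SE 0.238; edgeR, adjusted p = 0.0891). Chrm5, the remaining muscarinic receptor, had 0.68 (SE 0.384; edgeR, adjusted p = 0.164) at levels of 0.0366 to 1.54 CPM, and Prima1, the membrane anchor of acetylcholinesterase, 0.19 (SE 0.149; edgeR, adjusted p = 0.318). Slc10a4, Chrm5 and Prima1 had the opposite sign within the 6 mice of the less common header form.

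Independently of treatment and sex, some of the genes varied together from brain to brain. After the means by treatment and sex were removed, 13 of the 45 pairs were correlated over the 21 mice (two-sided permutation test of Pearson r with 100000 resamples, adjusted p at most 0.05), 10 positively and 3 negatively. The r of Chat with Slc5a7 was 0.906 (permutation p = 1e-05, the smallest the resamples can give; adjusted p = 0.000112) and the Spearman rho 0.842 (permutation p = 1e-05; adjusted p = 0.00015). Without the 2 mice farthest from the median residual of the first-named gene, r was 0.825. The first-named gene sets these 2 mice for every pair given here, so they can differ between pairs. Within the 15 and the 6 mice of each header form r was 0.920 and 0.745, and with header form and length slope also removed 0.969. Neither gene was correlated with a receptor gene or a cholinesterase at that threshold for r, although the rank correlation of Chat with Ache was 0.551 (permutation p = 0.0102, adjusted p = 0.0354; r = 0.490, permutation p = 0.0239, adjusted p = 0.0569). With header form and length slope also removed, r was 0.676 for Chat with Ache, 0.634 for Slc5a7 with Ache, -0.797 for Chat with Chrm3 and -0.723 for Slc5a7 with Chrm3 (permutation adjusted p = 0.0045, 0.0103, 0.0015 and 0.0036, with 10000 resamples). Of the 12 pairs that then passed, 5 were among the 13 above (Bche with Chrm1, Ache with Chrnb2, Chat with Slc5a7, Chrm1 with Chrm3 and Chrna4 with Chrnb2) and 7 were not. Within the 15 mice Chat with Chrm3 was -0.705 and Slc5a7 with Chrm3 -0.775.

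Chat and Slc5a7 also followed other genes of cholinergic neurons. All 12 pairs of Chat or Slc5a7 with Lhx8, Isl1, Gbx1, Ngfr, Slc18a3 and Slc10a4 were positively correlated (Pearson adjusted p at most 0.05 over the 12 permutation tests). Lhx8, Isl1 and Gbx1 are transcription factors of forebrain cholinergic neurons, and Ngfr is a receptor for neurotrophins including nerve growth factor. The r of Chat was 0.931 with Gbx1 (rho 0.851) and 0.921 with Ngfr (rho 0.874), and that of Slc5a7 was 0.959 with Lhx8 (rho 0.938), with a permutation p of at most 3e-05 for each r and rho and adjusted p of at most 5.14e-05. Without the 2 farthest mice these 3 values were 0.858, 0.842 and 0.917. The weakest of the 12 was Slc5a7 with Slc18a3 (r = 0.712, permutation p = 0.00028, adjusted p = 0.00028; rho = 0.569, permutation p = 0.00842, adjusted p = 0.00842), which was 0.480 without the 2 farthest mice.

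The other 9 positive pairs were among Ache, Chrna4, Chrnb2, Chrm1, Chrm3 and Chrm4, although Ache did not pass with Chrm1 or Chrm4 (permutation adjusted p = 0.0569 and 0.0542) and Chrm3 passed only with Chrm1. The highest r among the 45 pairs was that of Chrna4 with Chrnb2, 0.932 (rho 0.943; permutation p = 1e-05 for each, adjusted p = 0.000112 and 0.00015), which held at 0.888 without the 2 farthest mice and at 0.935 and 0.938 within the 2 header forms. Ache followed Chrnb2 with r = 0.855 (rho 0.888; permutation p = 1e-05 for each, adjusted p = 0.000112 and 0.00015), and 0.808 without the 2 farthest mice. Chrm1 followed Chrm4 with r = 0.810 (permutation p = 1e-05, adjusted p = 0.000112; rho = 0.794, permutation p = 3e-05, adjusted p = 0.000337), and 0.770 without the 2 farthest mice. Chrm1 followed Chrm3 with r = 0.709 (permutation p = 0.00026, adjusted p = 0.00117; rho = 0.688, permutation p = 0.00072, adjusted p = 0.00463), and 0.550 without the 2 farthest mice. When header form and length slope were also removed, r was 0.549 for Chrm1 with Chrm3, 0.569 for Chrna4 with Chrnb2, 0.699 for Ache with Chrnb2 and 0.335 for Chrm1 with Chrm4. The sign turned for 3 of the 13 pairs, from 0.792 to -0.236 for Chrm1 with Chrnb2, from 0.622 to -0.214 for Chrm4 with Chrnb2 and from 0.547 to -0.295 for Chrm4 with Chrna4, and Chrm1 with Chrna4 went from 0.780 to 0.016.

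Bche varied against Chrm1 and Chrm4. Its r was -0.777 with Chrm1 (permutation p = 3e-05, adjusted p = 0.000225; rho = -0.673, permutation p = 0.00121, adjusted p = 0.00605) and -0.734 with Chrm4 (permutation p = 0.00012, adjusted p = 0.0006; rho = -0.687, permutation p = 0.00091, adjusted p = 0.00512). Without the 2 farthest mice these were -0.628 and -0.639, within the 15 mice -0.738 and -0.670, and with header form and length slope also removed -0.554 and -0.434. With Chrnb2 it was -0.585 (permutation p = 0.00589, adjusted p = 0.0221), but rho was -0.399 (permutation p = 0.0742, adjusted p = 0.167) and r was -0.335 without the 2 farthest mice, so that relation rested on those mice. Its r with Chrm2 (-0.186), Chrm3 (-0.439) and Chrna4 (-0.504) did not pass (permutation adjusted p = 0.518, 0.102 and 0.0554). The r of Bche with Ache was -0.454 (permutation p = 0.0400, adjusted p = 0.0901; rho = -0.406, permutation p = 0.0675, adjusted p = 0.160).

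**Figure D4:**
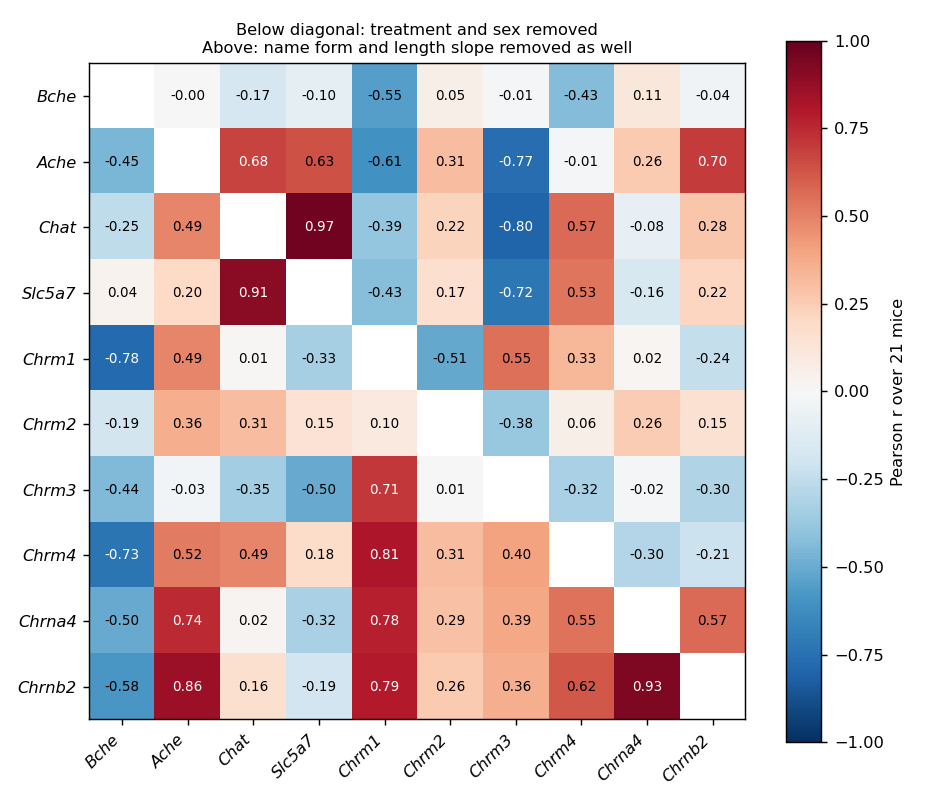
Pearson r over the 21 mice for each of the 45 pairs of genes, from residual log2 CPM after treatment and sex (below the diagonal) and after header form and length slope as well (above the diagonal), coloured from -1 (blue) to 1 (red). Chat with Slc5a7 is near 1 on both sides of the diagonal, while the positive block of Chrm1, Chrm4, Chrna4 and Chrnb2 below the diagonal is mostly lost above it.

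Chrnb2, Chrna4, Chrm1, Ache and Chrm4 followed the length slope across brains, but the 10 genes did not sort by their own transcript length. Chrm4 had the shortest gene model, at 1440 bases, and Bche, at 6210 bases, had a negative r with the slope. Of 10 correlations with the slope, 7 had an adjusted permutation p at most 0.05, 6 positive and 1 negative. The r was 0.940 for Chrnb2 (rho 0.907) and 0.901 for Chrna4 (rho 0.861), each with permutation p = 1e-05 and adjusted p = 3.33e-05 for r and 5e-05 for rho. For Chrm1 it was 0.886 (permutation p = 1e-05, adjusted p = 3.33e-05; rho = 0.783, permutation p = 4e-05, adjusted p = 0.000133). For Ache and Chrm4 it was 0.739 and 0.723 (permutation p = 5e-05 and 0.0001, adjusted p = 0.000125 and 0.0002; rho = 0.787 and 0.714, permutation p = 9e-05 and 0.00031, adjusted p = 0.000225 and 0.00062). Without the 2 farthest mice these 5 values were 0.915, 0.809, 0.755, 0.692 and 0.799.

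For Bche the r with the slope was -0.624 (permutation p = 0.00213, adjusted p = 0.00355; rho = -0.425, permutation p = 0.0576, adjusted p = 0.0959), which became -0.346 without the 2 farthest mice and so rested on them. The r of Chrm3 rested on its own 2 farthest mice too, at 0.486 (permutation p = 0.0251, adjusted p = 0.0359; rho = 0.356, permutation p = 0.113, adjusted p = 0.161), which became 0.232 without them. For Chat, Slc5a7 and Chrm2 the r was 0.0927, -0.264 and 0.239 (permutation p = 0.690, 0.248 and 0.295, adjusted p = 0.690, 0.310 and 0.328; rho = 0.192, -0.255 and 0.247, permutation p = 0.400, 0.264 and 0.280, adjusted p = 0.400, 0.311 and 0.311).

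**Figure D5:**
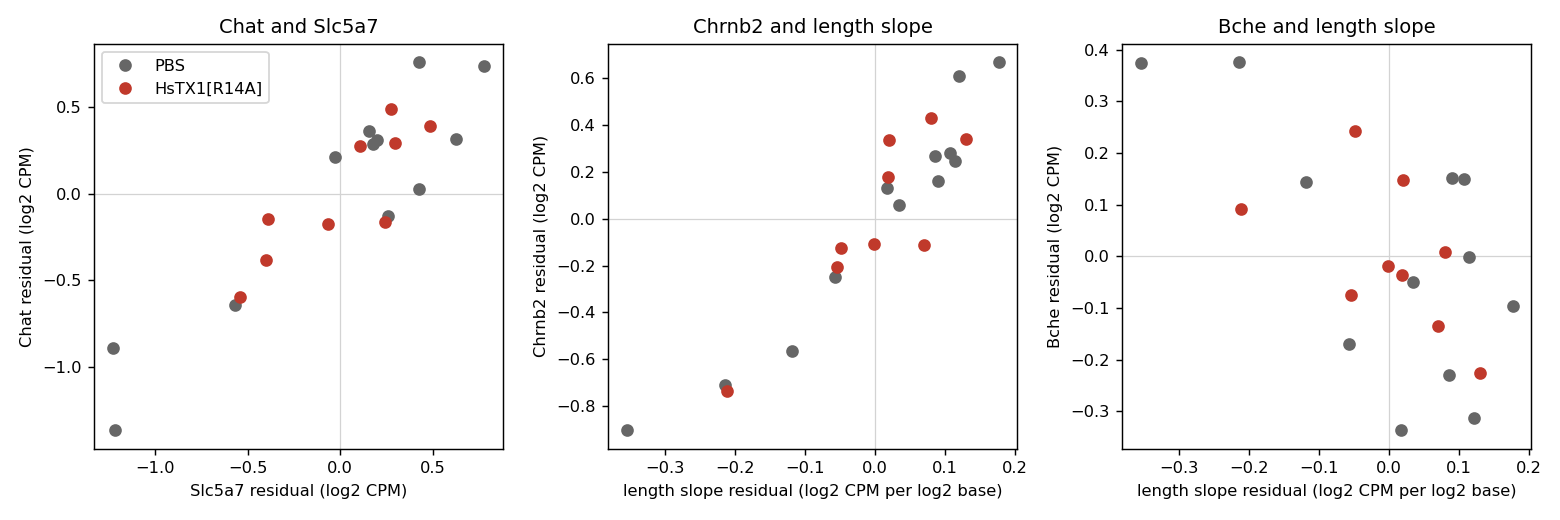
Residual log2 CPM after treatment and sex, 1 point a mouse (12 PBS in grey, 9 HsTX1[R14A] in red), for Chat against Slc5a7 (r = 0.906) and for Chrnb2 (r = 0.940) and Bche (r = -0.624) against the residual length slope (log2 CPM per log2 base). The 2 mice with the lowest length slope have the highest Bche and are among the 3 with the lowest Chrnb2.

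Marker genes of regions and cell types moved with 3 of the genes. The residuals of Bche, Ache and Chat were compared with the mean residual of 14 marker lists, and 4 of the 42 pairs had an adjusted permutation p at most 0.05 for r. Chat followed 6 markers of striatal neurons (Drd1, Drd2, Adora2a, Ppp1r1b, Penk and Rgs9) with r = 0.707 (permutation p = 0.00109, adjusted p = 0.0153; rho = 0.658, permutation p = 0.00158, adjusted p = 0.0221), and 0.608 without the 2 farthest mice. All 6 were in the table, with summed levels of 647 to 1459 CPM in PBS and 357 to 1497 CPM in HsTX1[R14A] mice. Of the 3 markers of brainstem motor neurons, which are cholinergic too, only Prph was in the table. The part of striatal tissue in the Chat values was not tested.

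Ache followed the 3 markers of oligodendrocyte precursors (Pdgfra, Cspg4 and Vcan) with r = 0.912 (rho 0.908; permutation p = 1e-05 for each, adjusted p = 0.00042 for each). It was 0.879 without the 2 farthest mice, 0.915 and 0.980 within the header forms, and 0.813 with header form and length slope also removed. That removal also took the r of Ache with cortical neuron markers from 0.190 to -0.854. With the markers of neurons in general its r went from -0.299 to -0.741. These adjusted values with marker lists were not tested. Summed levels of the precursor markers were 47.3 to 91.0 CPM in PBS and 53.7 to 97.9 CPM in HsTX1[R14A] mice. Bche ran against the 5 endothelial markers (r = -0.679, permutation p = 0.0007, adjusted p = 0.0147; rho = -0.697, permutation p = 0.00068, adjusted p = 0.0143) and against the 5 cortical neuron markers (r = -0.628, permutation p = 0.00164, adjusted p = 0.0172; rho = -0.562, permutation p = 0.00922, adjusted p = 0.0774). Without the 2 farthest mice these were -0.584 and -0.435, and with header form and length slope also removed -0.322 and -0.212. Summed cortical markers were 254 to 1121 CPM in PBS and 745 to 1508 CPM in HsTX1[R14A] mice, and summed endothelial markers 65.7 to 114 CPM and 77.6 to 132 CPM. The part of either tissue in the Bche difference was not tested.

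Among 13301 genes whose mean log2 CPM was 1 or more, those most like Bche in residual level over the 21 mice were Me1, the cytosolic malic enzyme (r = 0.918), Arsk, a sulfatase (0.893), Sacm1l, a phosphoinositide phosphatase (0.880), Olfml1 (0.873) and Zfp958 (0.872). For Ache they were Gaa, the lysosomal alpha-glucosidase (0.966), Susd2 (0.957), Cul7, a ubiquitin ligase scaffold (0.956), Tmem130 (0.953) and Nynrin (0.947). Among those most like Chat were Lppr1 (0.939), Gbx1 (0.931), Ngfr (0.921) and Gpr149 (0.910), of which Gbx1 and Ngfr are among the cholinergic neuron genes listed above. With header form and length slope also removed, r stayed between 0.771 and 0.911 for the genes named for Bche, between 0.897 and 0.956 for Ache and between 0.925 and 0.977 for Chat. These r values are a description of the genes that came out highest, with no test.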

How the data were processed

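Per the labels and the methods, whole-brain RNA of each mouse was sequenced, reads were aligned by the authors to GRCm38 with STAR and quantified per gene with Salmon through an NfCore/RNAseq pipeline. The labels name a SMARTER mRNA kit and the methods a directional MGI kit. The annotation release and the filter that left 16318 genes are not given in the sources used here. The deposited values used are estimated counts per gene (90.5% within 0.01 of a whole number), which were rounded. The 53 other columns of per-sample values were not used, nor were the authors' own fold changes, p-values and false discovery rates. Columns were matched to samples by mouse number.

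Genes were tested with edgeR 4.0.16 in R 4.3.3 (filterByExpr, TMM scaling, quasi-likelihood F test, sex and treatment in the model, 21 mice, Benjamini-Hochberg adjustment over 16303 genes, threshold 0.05). The study itself used limma/voom with a correction for sex. Alternatives were limma 3.58.1 (voom), DESeq2 1.42.0, RLE scaling, no low-count filter or at least 10 counts in every mouse, header form or length slope as a covariate, no sex term, the mice of 1 header form only, and leaving out each mouse. A fit without the 2 libraries of lowest length slope was chosen after seeing the data, as were the correlations with marker lists. Correlations used residual log2 CPM (prior count 2) and 100000 permutations drawn with NumPy 2.4.6, with ranks from SciPy 1.17.1. The alternatives, including header form and length slope removed, used 10000 permutations. Residuals were shuffled over mice with no allowance for the terms removed, which can make p too small. This matters most with header form and length slope also removed, so pairs near the threshold may pass too easily. The count test was tested on simulated data that held no length slope or header form difference between libraries. That simulation therefore says nothing about how these 2 features act on the calls. Gene models were GENCODE vM21, with 16239 IDs matched.

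The genes named are the 10 chosen, then Slc18a3, Slc10a4, Chrna7, Chrm5 and Prima1, called genes of the wider list up to 8 by smallest p-value, and the 5 genes most like Bche, Ache and Chat. These genes, the wider list and the marker lists were chosen with earlier results of these data known, and 3 listed genes are not reported here. Total counts of 14917174 to 47613792 a library set the counting precision, and p-values measure the spread between mice.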

Additional observations from a re-analysis of the deposited data

Results flagged for a closer look

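Of 54 groups of 6 mice tested with Dixon's criterion (critical value 0.625), 3 held a library far from the others, and chance alone flags about 1 group in 20. Chrm4 was 27.4 CPM in HsTX1[R14A] male mouse 81, against 12 to 17 CPM in the other 5 males of that group. Gnao1 was 958 CPM in the same mouse, against 486 to 643 CPM in the others. Chrna6 was 2.25 CPM in HsTX1[R14A] male mouse 88, against 0.178 to 0.414 CPM in the other 5.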

How the results depend on the processing

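Counts of called genes among the 10 (6 in the main model) stayed at 6 with limma/voom, DESeq2, RLE scaling and either low-count filter. The count was 2 with header form as covariate, 3 with no sex term, 3 without the 2 libraries of lowest length slope and 0 with the length slope as covariate or within either header form. It ran from 3 to 6 with 1 mouse left out. Over all genes, 2526 were called higher and 2618 lower in the main model, and 3171 and 2974 with DESeq2. These counts fell to 975 and 1024 with header form as covariate and to 1428 and 1556 with no sex term. They were 1687 and 1200 without the 2 libraries of lowest slope, and 0 with the slope as covariate or within either header form. With 1 mouse left out they were lowest without mouse 90, at 1259 and 1030. Among the 37 other cholinergic genes (4 called) the count was 8 with DESeq2 and 2 with header form as covariate. It was 2 without the 2 libraries of lowest slope, and 1 to 7 with 1 mouse left out. With the slope as covariate or within either header form it was 0. Fewer mice were tested within each header form, and elsewhere the cause was not tested. The sign turned for Chrna4 with the slope as covariate (-0.088) and, within the 6 mice of the less common form, for Slc10a4 (-0.078), Chrm5 (-0.76) and Prima1 (-0.049). No gene of the 10 was called for sex or for the interaction in any alternative. Correlated pairs were 13, then 12 with header form and slope removed (5 of them shared with the 13), 13 with RLE scaling, 13 in the PBS mice alone and 11 to 19 with 1 mouse left out, and the order of levels kept 9 neighbours, 7 with summed exon lengths and 8 to 9 with 1 mouse left out. Counts of 1 to 31 a library for Chrm5 in PBS mice and 2 to 13 for Chrna6 limit these genes. No paired analysis was possible because the labels give no cage, although the methods state that treatments were randomised within cages, and the groups share no mouse numbers.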
